A study of Homo sapiens with 7 samples.

Results

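Of 149700 distal regions of strong chromatin accessibility in a course from human embryonic stem cells to pharyngeal endoderm, 677 (0.452%) had no stem cell peak and carried strong peaks from definitive endoderm through both later stages. The members were chosen from the peak calls themselves. A peak was strong when the number in its deposited name, which orders the peaks of a library by −log10 p, was at most 80000, and overlapping strong peaks of the 7 lists were merged (chromosomes 1 to 22 and X). A member overlapped a strong peak in at least 1 library of definitive endoderm, at least 1 of anterior foregut endoderm and the only library of pharyngeal foregut endoderm. It overlapped no peak of any rank in the stem cells, and it lay more than 1 kb from both ends of every protein-coding gene.

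Accessibility was measured by ATAC-seq, in which a transposase cuts and tags DNA where chromatin is open, in H1, an established human embryonic stem cell line. There were 2 libraries of undifferentiated cells (hESC), 2 of definitive endoderm (hDE), 2 of anterior foregut endoderm (hAFE) and 1 of pharyngeal foregut endoderm (hPFE). The titles mark the first 4 (hESC and hDE) as re-analysed and not the last 3, so stage and source cannot be told apart between hDE and hAFE. All stages share the one cell line, the labels give no agents or days, and they do not say whether replicates were separate cultures, so that replicate spread may be technical. The lists held 298508 to 299374 peaks per library, and the genome-wide background recovered from them, which grows with depth, ran from 2.11 to 7.94 cut sites. GATA6, an endoderm transcription factor gene, had 1 and 2 strong regions within 100 kb in hESC, 9 and 9 at hDE, 6 and 5 at hAFE, and 6 at hPFE. NANOG, a pluripotency gene, had 3 and 3 at hESC, 2 and 1 at hDE, 0 and 1 at hAFE, and 1 at hPFE. EOMES, an endoderm gene, had 10 and 9 at hESC, 14 and 13 at hDE, 7 and 9 at hAFE, and 5 at hPFE. Some other stage markers did not follow their stage. POU5F1, a pluripotency gene, had 3 and 6 at hESC, 2 and 0 at hDE, 3 and 2 at hAFE, and 4 at hPFE. SOX17, an endoderm gene, had 6 and 4 at hESC, 7 and 7 at hDE, 6 and 9 at hAFE, and 2 at hPFE. EYA1, a pharyngeal gene, had 8 and 10 at hESC, 7 and 9 at hDE, 8 and 8 at hAFE, and 5 at hPFE.

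Distal regulatory elements, chiefly enhancers, lie away from promoters, and their DNA becomes accessible when transcription factors displace nucleosomes. Definitive endoderm forms under Nodal signalling, and FOXA, GATA and SOX17 proteins act there as early factors, some of them able to bind closed chromatin. The anterior foregut and then the pharyngeal endoderm arise from it, and the pharyngeal pouches later give rise to the thymus and the parathyroid glands.

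Sequence could be shown for the 10 members (1.48%) that lay over the start window of a RefSeq gene, 250 bases before to 50 after the start; the share was 2.7% of all distal regions. Of these 10 genes, 7 are long noncoding RNA genes and 3 are protein-coding genes (GATA3, ZNF668 and KAT14) with a start inside the gene's own span, so that the members there are distal by the rule and yet cover a start. The 5 windows below were chosen to show the range, from 1 with 4 kinds of motif to 1 with none. Sequences are RefSeq, GRCh38.p14, read 5′ to 3′ on the gene's strand, and the part inside the member is shown. Capitals mark matches on either strand to TGTTTAC for forkhead factors, AGATAA for GATA factors, ACAATG for SOX factors, TGANTCA for AP-1, GGAATG for TEAD and TGACAG for MEIS factors. The windows are LINC00332 (chr13:40181559-40181858, plus strand), LUCAT1 (chr5:91314353-91314652, minus strand), ARGLU1-DT (chr13:106617560-106617859, plus strand), LINC01825 (chr2:195532758-195533013, plus strand) and GATA3 (chr10:8054438-8054737, plus strand).
LINC00332: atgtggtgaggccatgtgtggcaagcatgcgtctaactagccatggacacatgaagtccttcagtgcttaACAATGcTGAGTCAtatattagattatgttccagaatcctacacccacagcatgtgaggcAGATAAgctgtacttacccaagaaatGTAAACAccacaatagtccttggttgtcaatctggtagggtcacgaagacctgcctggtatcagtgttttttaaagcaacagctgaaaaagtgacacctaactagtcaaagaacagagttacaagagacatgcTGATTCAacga
LUCAT1: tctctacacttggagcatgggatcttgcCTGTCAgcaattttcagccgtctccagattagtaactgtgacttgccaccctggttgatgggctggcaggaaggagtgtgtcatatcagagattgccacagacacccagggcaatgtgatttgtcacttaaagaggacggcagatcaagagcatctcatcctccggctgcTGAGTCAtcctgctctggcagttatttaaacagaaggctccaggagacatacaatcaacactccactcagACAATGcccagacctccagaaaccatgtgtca
ARGLU1-DT: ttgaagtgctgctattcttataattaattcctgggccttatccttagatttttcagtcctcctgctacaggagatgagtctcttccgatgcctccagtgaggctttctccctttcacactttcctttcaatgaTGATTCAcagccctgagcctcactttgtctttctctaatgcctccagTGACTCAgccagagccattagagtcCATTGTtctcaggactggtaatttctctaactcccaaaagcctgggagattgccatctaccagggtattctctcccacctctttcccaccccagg
LINC01825: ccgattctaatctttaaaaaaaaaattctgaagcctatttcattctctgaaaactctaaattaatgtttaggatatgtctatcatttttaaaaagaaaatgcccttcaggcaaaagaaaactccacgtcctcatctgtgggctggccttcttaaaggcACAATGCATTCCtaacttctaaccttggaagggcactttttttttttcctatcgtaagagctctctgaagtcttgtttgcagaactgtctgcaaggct
GATA3: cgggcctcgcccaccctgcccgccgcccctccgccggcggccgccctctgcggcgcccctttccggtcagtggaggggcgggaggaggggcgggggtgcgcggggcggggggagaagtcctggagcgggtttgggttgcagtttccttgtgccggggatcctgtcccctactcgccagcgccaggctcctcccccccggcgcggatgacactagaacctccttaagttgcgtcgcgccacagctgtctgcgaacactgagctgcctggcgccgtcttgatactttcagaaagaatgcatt

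The forkhead, GATA and SOX families include several early endoderm factors, and the LINC00332 window held matches to all of these and to AP-1. Its member, 35790 bp from the nearest coding gene end, had fold enrichments of 7.99 and 12.6 at hDE, 8.40 and 6.03 at hAFE, and 8.02 at hPFE. The fold is the authors' value, the summit over the local background of the same library. At LUCAT1, a long noncoding RNA gene, the folds were 4.44 and 8.52 at hDE, 10.8 and 17.4 at hAFE, and 13.5 at hPFE. This member ranked best in hPFE and hAFE replicate 2, with ranks (1 is the strongest peak of a library) of 83152 and 61806 at hDE, 52794 and 11044 at hAFE, and 5334 at hPFE. The ARGLU1-DT member was placed the other way, with ranks of 7568 and 6975 at hDE, 53308 and 50658 at hAFE, and 57184 at hPFE. At LINC01825 a SOX and a TEAD match stood side by side, and the folds were 4.34 and 9.01 at hDE, 9.62 and 11.4 at hAFE, and 7.93 at hPFE.

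GATA3 encodes a zinc finger transcription factor of parathyroid and thymus development, and its member covers a start of that gene. The window differed from the rest in base composition, with 29 CG dinucleotides and 69.3% G and C, against 0 to 3 CG dinucleotides in the parts of the other 9 windows inside members. None of the motifs searched matched it. Its folds were 3.40 and 2.70 at hDE, 5.41 and 3.76 at hAFE, and 3.89 at hPFE. The ranks were 43061 and 156036 at hDE, 27070 and 34788 at hAFE, and 28519 at hPFE, so that in hDE only replicate 1 was strong.

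Over the whole 300-base windows at the 10 members, SOX matches occurred in 5. The share was 10.7% over all 34781 RefSeq start windows and 10.4% over those at distal regions. AP-1 matches occurred in 5, against 7.69% of all windows and 10.2% of those at distal regions. In the same order, forkhead matches occurred in 2, against 3.42% and 4.11%, and TEAD matches in 2, against 14.1% and 16.2%. GATA matches occurred in 1, against 10.4% and 9.93%, and MEIS matches in 1, against 15.8% and 16.4%. The T-box (0.986% of all windows), OTX and GSC (6.34%), HNF1 (0.796%), nuclear receptor (0.405%), CTCF (2.51%), POU (1.77%) and GRHL (1.73%) motifs had no match, which says only that those letters are not in these windows. A match is a description of the letters and not a bound site, and 10 windows do not describe the other members.

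Most distal regions that were strong at all 3 later stages were already open in hESC. Of 14197 such regions, 12111 (85.3%) had a strong peak in at least 1 hESC library. A further 1409 (9.92%) had only weaker hESC peaks, and the 677 members (4.77%) had none. Among the 1409, the weak peak was in both hESC libraries at 763, in replicate 1 only at 212 and in replicate 2 only at 434. Having no peak is not a fixed level of signal. The weakest −log10 p listed was 2.23 in hESC replicate 1 and 4.77 in replicate 2. The lowest summit listed was 3.32 times the background in hESC replicate 1 and 3.46 times in replicate 2, and replicate 1 had the lowest background of all libraries (2.11, against 4.62 in replicate 2). The nearest hESC peak of any rank lay a median of 2653 bp from a member, and within 1 kb of 174 members (25.7%). That share was 23.6% for regions strong in hDE and hAFE only and 23.7% for those strong in hAFE and hPFE only.

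Within the rule, the members were unevenly strong across libraries. Of the 677, 510 and 607 were strong in hDE replicates 1 and 2, 583 and 508 in hAFE replicates 1 and 2, and all in hPFE, as the rule requires. A peak of any rank was present at 654 and 674 members in hDE, at 661 and 660 at hAFE, and at 677 at hPFE. In all, 278 members (41.1%) were strong in all 5 libraries, against 70.8% of the 14197 regions when hESC peaks are allowed. Another 298 were strong in 4 libraries and 101 in 3, the fewest the rule allows. Both hDE libraries were strong at 440 members (65%, against 77.2%) and both hAFE libraries at 414 (61.2%, against 87.3%). A peak in all 5 libraries was found at 620 members (91.6%, against 98.8%). These shares rest on the calls that chose the members and are given as a description.

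The typical member was a moderate peak. The median rank was 51546.5 in hDE replicate 1, 42354.5 in hDE replicate 2, 40528 in hAFE replicate 1, 49240 in hAFE replicate 2 and 35145 at hPFE. The median fold was 5.70 and 12.2 at hDE, 11.5 and 7.62 at hAFE, and 6.50 at hPFE. The summit, recovered from fold and p as a number of cut sites and divided by the genome-wide background, had a median of 8.95 and 22.6 at hDE, 23.9 and 11.9 at hAFE, and 9.89 at hPFE. Beside the 14197 regions with hESC peaks allowed, the members were weaker by median rank in hDE replicate 1 (51546.5, against 32976) and in both hAFE libraries (40528, against 27124, and 49240, against 28729). The medians lay closer in hDE replicate 2 (42354.5, against 39563) and in hPFE (35145, against 37291).

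**Figure D1:**
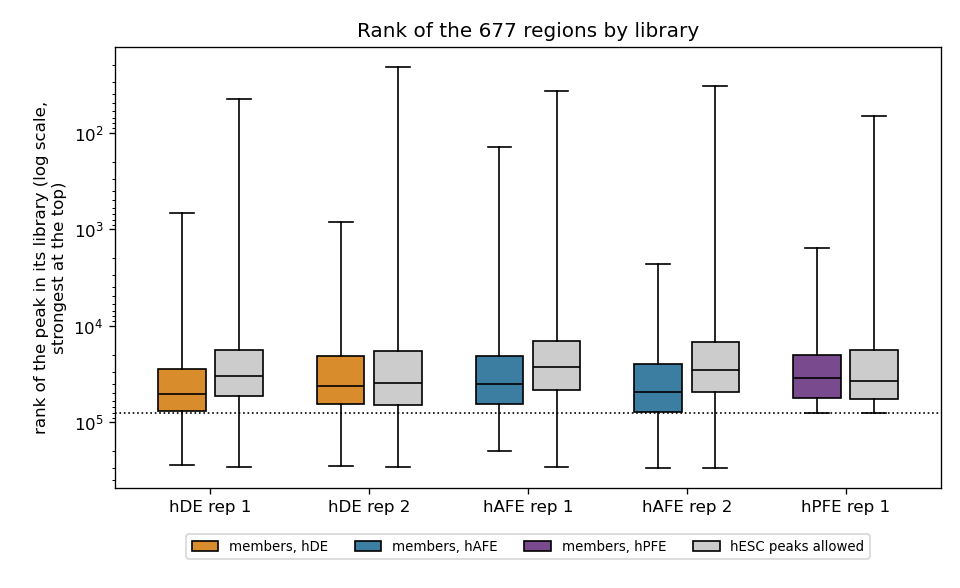
Rank of the members' peaks (coloured boxes) beside the 14197 distal regions strong at the same stages with hESC peaks allowed (grey boxes), by library, on a log axis with the strongest peak at the top; boxes give the quartiles and the median, whiskers the lowest and highest rank, and the dotted line the limit of 80000. Members sit lower than the grey boxes in both hAFE libraries and in hDE replicate 1, and level with them in hPFE, where the medians are 35145 and 37291.

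The 10 strongest members, by mean rank over the 5 later libraries, were strong in every one of them. First was a region inside IMMP2L, the gene of a mitochondrial inner membrane peptidase, at chr7:110677359-110678046 (hg38, 14715 bp from a gene end). Its ranks were 17406 and 3454 at hDE, 4737 and 9206 at hAFE, and 4389 at hPFE, and its fold enrichments came to 10.3 and 19.9 at hDE, 20.7 and 16.5 at hAFE, and 13.5 at hPFE. In cut sites the summit held 82 and 455 at hDE, 186 and 153 at hAFE, and 153 at hPFE. The second, at chr21:15293055-15293742, lay 227119 bp from NRIP1, the gene of a nuclear receptor corepressor. It ranked 18445 and 4926 at hDE, 7606 and 9331 at hAFE, and 4352 at hPFE. Both of these regions were thus in the upper part of every later list, with hDE replicate 1 the lowest-ranked library of the 5.

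The region inside DHRS3, whose product reduces retinaldehyde and so limits retinoic acid, ranked best in hDE. It lay at chr1:12604148-12604744, 13466 bp from a gene end, with ranks of 5184 and 2237 at hDE, 14039 and 12611 at hAFE, and 16309 at hPFE. Its folds were 12.2 and 16.5 at hDE, 16.8 and 13.5 at hAFE, and 8.16 at hPFE. The stages did not overlap in rank here, and they ran down from hDE to hPFE. The region inside TNFSF8, the gene of the ligand of CD30, had its best rank in hPFE: 8256 and 31022 at hDE, 4557 and 6480 at hAFE, and 2103 at hPFE. THNSL2, a threonine synthase-like gene, lay 94506 bp from a region with ranks of 14452 and 5626 at hDE, 3759 and 2317 at hAFE, and 26478 at hPFE, best in both hAFE libraries.

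Other members of the 10 differed less in rank between libraries, though the stages still parted at some. The region 100214 bp from HAS2, a hyaluronan synthase gene of the extracellular matrix, ranked 9160 and 11820 at hDE, 12409 and 12452 at hAFE, and 14618 at hPFE. The region 451174 bp from NXPH1, the gene of the neurexin ligand neurexophilin 1, ranked 14116 and 12634 at hDE, 5666 and 7939 at hAFE, and 9819 at hPFE. The region inside ELMO1, a gene of Rac activation in cell migration, was the longest of the members at 1843 bp and ranked 7537 and 11895 at hDE, 10982 and 11161 at hAFE, and 18005 at hPFE. These 3 had the smallest differences between their best and worst rank, a measure that favours strong peaks. The region 157925 bp from EEA1, the gene of an early endosome tether, ranked 5731 and 8166 at hDE, 11630 and 16929 at hAFE, and 11761 at hPFE, with both hDE libraries ahead.

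BMP2, a ligand of the bone morphogenetic protein family, had a member 366685 bp from its nearest end, at chr20:7146931-7147814, in a stretch with no nearer coding gene. Its ranks were 8299 and 4883 at hDE, 6149 and 5998 at hAFE, and 35863 at hPFE, and its summit was 30.3 and 64.4 times the background at hDE, 77.5 and 50.6 times at hAFE, and 10.2 times at hPFE. The hPFE library was the weakest of the 5 there. A second member lay close by, at chr20:7151751-7152537, with ranks of 34988 and 24513 at hDE, 64287 and 122850 at hAFE, and 32644 at hPFE. The neighbours thus took different courses: hAFE was among the best libraries of the first and held the worst ranks of the second.

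**Figure D2:**
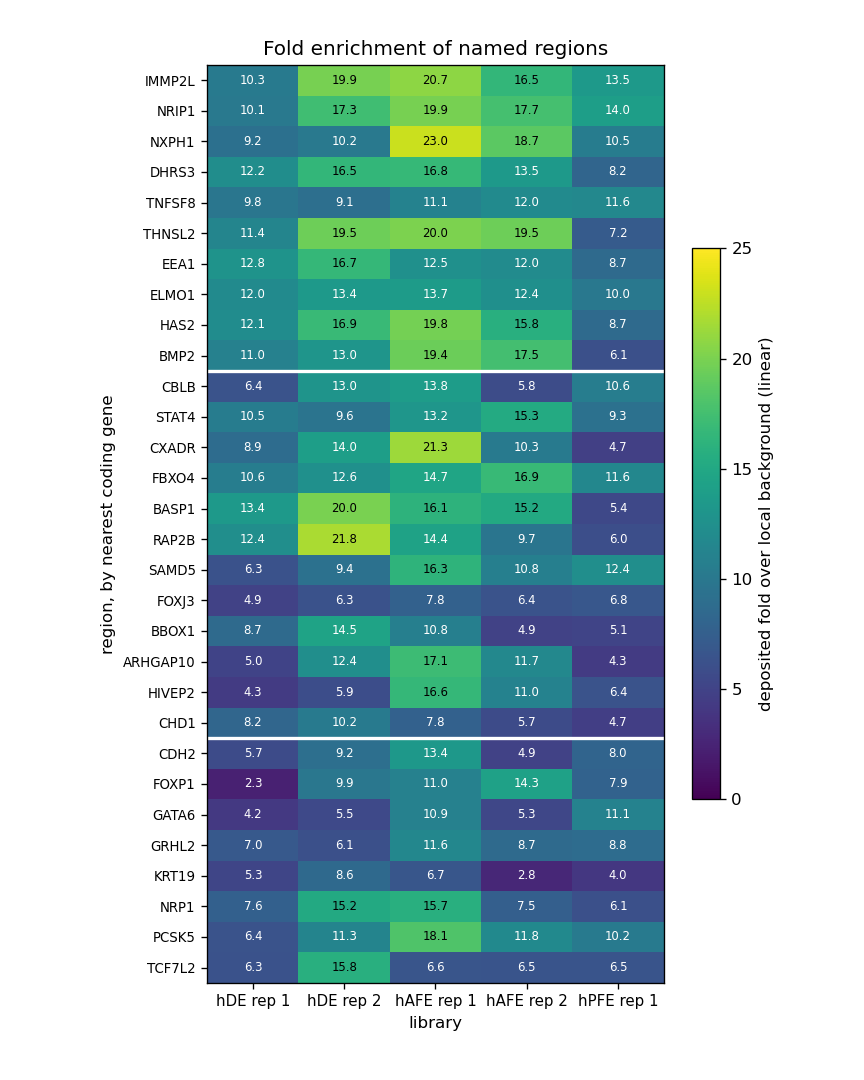
Deposited fold enrichment over local background (colour and printed value, linear scale) of 30 named members, by nearest coding gene (rows) and library (columns, hDE to hPFE). The 3 blocks are the 10 strongest members, the strongest member of the 12 genes with the most members, and the members at genes of the endoderm and pharyngeal lists; folds run from 2.31 at FOXP1 in hDE replicate 1 to 23.0 at NXPH1 in hAFE replicate 1.

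Most genes near a member had only 1, a count that was not made for equally many other distal regions. A coding gene end lay within 100 kb of 406 members, at 392 genes. CBLB, the gene of a ubiquitin ligase, had 3 members, 12 genes had 2 and 379 had 1. The 3 at CBLB lay at chr3:105647038-105647353, chr3:105688802-105689306 and chr3:105822522-105823981. The last was the strongest, with ranks of 45820 and 30293 at hDE, 40189 and 82067 at hAFE, and 14205 at hPFE, so that hPFE stood first and hAFE replicate 2 was just outside the limit. The middle one ranked 184994 and 71142 at hDE, 83015 and 72442 at hAFE, and 66096 at hPFE, near the limit in 4 libraries.

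Among the genes with 2 members, the stronger region 14474 bp from STAT4, the gene of a transcription factor of cytokine signalling, ranked 6847 and 9347 at hDE, 35577 and 15881 at hAFE, and 24135 at hPFE. Both hDE libraries were ahead of the other 3 in rank there, though the folds were lower at hDE (10.5 and 9.64) than at hAFE (13.2 and 15.3). At CXADR, the gene of an epithelial junction protein, the stronger region lay at chr21:17436476-17437462 and ranked 17426 and 5389 at hDE, 3259 and 16551 at hAFE, and 67342 at hPFE, while the other, at chr21:17501196-17501952, ranked 51751 and 35330 at hDE, 21904 and 19945 at hAFE, and 19616 at hPFE. The hPFE rank was behind both hAFE ranks at the first and level with them at the second, and the fold was lower in hPFE than in both hAFE libraries at both, 4.74 against 21.3 and 10.3, and 10.1 against 20.6 and 15.1. At BASP1, the ranks of the stronger region were 9354 and 2200 at hDE, 29820 and 20835 at hAFE, and 55533 at hPFE, and at RAP2B, the gene of a small GTPase, they were 18412 and 12624 at hDE, 38055 and 42023 at hAFE, and 49643 at hPFE. Both ran down stage by stage in rank with no overlap, though hDE and hAFE overlapped in fold and in summit over background at both.

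SAMD5 showed the reverse order for the later stages: its stronger region ranked 48131 and 63691 at hDE, 16189 and 24182 at hAFE, and 9009 at hPFE. Its other region gave 63974 and 112773 at hDE, 38823 and 43602 at hAFE, and 12126 at hPFE. Both SAMD5 members, 19175 and 94982 bp from a gene end, therefore improved in rank at each stage. FOXJ3, a forkhead factor gene, had a region 4180 bp away that ranked 37566 and 68477 at hDE, 27098 and 30919 at hAFE, and 20758 at hPFE. The stronger regions at FBXO4, BBOX1, ARHGAP10, HIVEP2 and CHD1 had folds between 4.34 and 14.5 at hDE, between 4.95 and 17.1 at hAFE, and between 4.35 and 11.6 at hPFE.

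A small number of members lay at genes of endoderm development, too few to set these genes apart from all coding genes. Of the 29 endoderm transcription factor genes of a list, 3 had a member within 100 kb, GATA6, GRHL2 and TCF7L2, with 1 each. That is 3 of the list's 45 regions strong at all 3 later stages (6.67%), beside 406 of 11251 (3.61%) over all coding genes. The GATA6 member, 62486 bp from the gene at chr18:22106511-22107103, ranked 62844 and 93035 at hDE, 43577 and 81233 at hAFE, and 12995 at hPFE. It was strong in 3 of the 5 libraries, and hPFE was ahead of the other 4. Its folds were 4.17 and 5.54 at hDE, 10.9 and 5.33 at hAFE, and 11.1 at hPFE. TCF7L2, which encodes a transcription factor of WNT signalling, had a member inside the gene with ranks of 42019 and 19259 at hDE, 86958 and 64076 at hAFE, and 32003 at hPFE. GRHL2, an epithelial transcription factor gene, had 1 inside the gene with ranks of 35536 and 128047 at hDE, 34880 and 48913 at hAFE, and 22305 at hPFE. When both replicates had to be strong, none of these 3 genes kept a member.

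The list of 30 endoderm signalling and surface genes held 4 members at 4 genes, of 27 regions strong at all 3 later stages (14.8%). PCSK5, the gene of a proprotein convertase that processes TGF-beta family ligands, had a member 1855 bp away at chr9:76364830-76365406, with ranks of 40859 and 24353 at hDE, 17522 and 27883 at hAFE, and 20442 at hPFE. NRP1, a semaphorin and VEGF coreceptor gene, had 1 at 52084 bp, with ranks of 36105 and 17472 at hDE, 12731 and 49408 at hAFE, and 40168 at hPFE. Both of these were strong in all 5 libraries. KRT19, an epithelial keratin gene, had 1 at 1902 bp with ranks of 21186 and 20895 at hDE, 29527 and 115917 at hAFE, and 43665 at hPFE. CDH2, which encodes N-cadherin, had 1 inside the gene, at chr18:28078471-28079463, with ranks of 34853 and 30403 at hDE, 21513 and 87050 at hAFE, and 20449 at hPFE. At KRT19 and CDH2 alike, hAFE replicate 2 was the only library outside the limit.

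Of the 39 anterior foregut and pharyngeal transcription factor genes, 1 had a member, FOXP1, a forkhead factor gene (1 of 58 regions strong at all 3 later stages, 1.72%). That member, inside the gene at chr3:71026534-71027459, ranked 263831 and 50425 at hDE, 40945 and 11075 at hAFE, and 20297 at hPFE, weakest in hDE replicate 1. A second member inside FOXP1, at chr3:71219793-71220765 and more than 100 kb from a gene end, had another order, with ranks of 20709 and 14629 at hDE, 47031 and 109500 at hAFE, and 77877 at hPFE. The 27 pharyngeal signalling genes had no member within 100 kb among 38 such regions. The 16 liver, pancreas and hindgut regulators (17 regions), the 29 pluripotency genes (17) and the 20 neural regulators (36) had none either, and the 24 mesoderm, cardiac and smooth muscle regulators had 1 of 32, at HAND1. Within 500 kb the numbers were 3 for endoderm transcription factors, 7 for endoderm signalling and surface genes, 6 for foregut and pharyngeal factors and 2 for pharyngeal signalling genes (SHH and WNT5A). Members were counted by nearest gene end. The pharyngeal signalling count thus leaves out 2 members inside RARB, a gene of that list, whose nearest end was that of TOP2B. They were 0 for liver, pancreas and hindgut regulators, 2 for pluripotency genes, 1 for neural regulators and 3 for mesoderm regulators. With counts this small, the lists are given as a description.

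At the best known endoderm genes, as over all coding genes, most distal regions strong at all 3 later stages had an hESC peak. FOXA2 had 3 distal regions strong in hDE, hAFE and hPFE, of which 2 had a strong hESC peak and 1 a weak one. GATA4 had 2, and both had a strong hESC peak. PRDM1 had 3, of which 1 had a strong and 2 a weak hESC peak. EOMES and EYA1 had 1 each, PAX1 had 3 and PAX9 had 5, all with a strong hESC peak. SOX17, CXCR4 and TBX1 had no distal region strong at all 3 later stages. Of these genes and GATA6, only GATA6 had a member. The strong peaks that the others kept from hDE on lay over DNA with at least a weak hESC peak. Over all coding genes members were likewise few, 406 of 11251 such regions (3.61%), so these counts do not set the genes apart.

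In rank, hPFE was more often ahead of hAFE than behind it over all members, but not among those strong in all 5 libraries. The hPFE rank was ahead of both hAFE ranks at 331 members (48.9%, against 28.1% of the 14197 regions) and behind both at 189 (27.9%, against 47.9%). These ranks were among the values that chose the members, and in the same way the 14197 regions, so the shares are given as a description. The 1409 regions with weak hESC peaks only gave 47.1% ahead and 31.2% behind. The order also turned with the scale. By summit over background, hPFE was ahead of both hAFE libraries at 77 members (11.4%, against 3.63%) and behind both at 362 (53.5%, against 85.3%). Among the 278 members strong in all 5 libraries, 33.1% were ahead and 46.8% behind by rank.

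**Figure D3:**
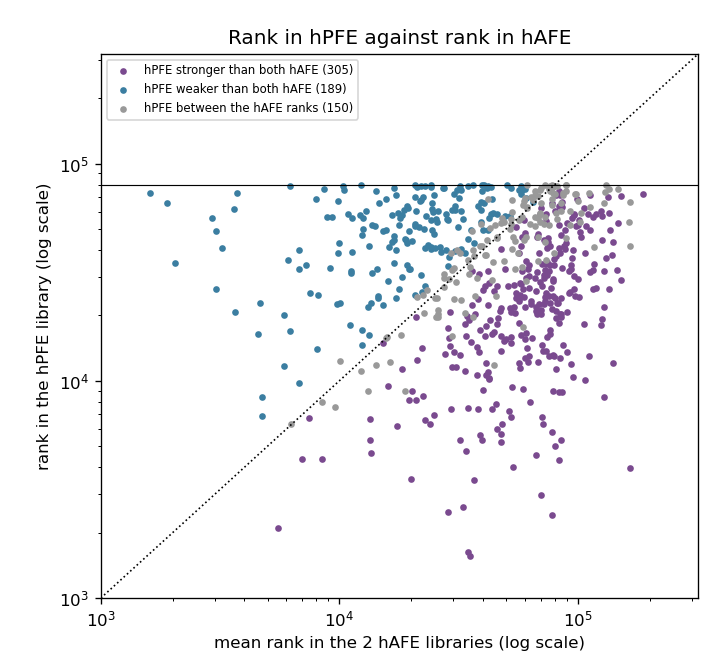
Rank in the hPFE library (vertical log axis) against the mean rank in the 2 hAFE libraries (horizontal log axis) for the 644 members with a peak in both hAFE libraries; lower numbers are stronger peaks, the dotted line marks equal ranks and the solid line the limit of 80000. Points are coloured by whether hPFE was stronger than both hAFE libraries (305), weaker than both (189) or between them (150), and no point lies above the solid line because the rule required a strong hPFE peak.

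Between hAFE and hDE neither order prevailed in rank over the 4 libraries. Both hAFE libraries were ahead of both hDE libraries at 189 members (27.9%, against 30.3% of the 14197 regions) and behind both at 182 (26.9%, against 13.5%). By summit over background the numbers were 127 (18.8%, against 35.3%) and 62 (9.16%, against 2.73%). Leaving out 1 library chose the members anew, and the remaining library of that stage had to be strong and was the only one compared. Without hDE replicate 1, hAFE was ahead at 28% and behind at 47% of 607 members. Without hDE replicate 2 it was 32.8% and 42.1% of 518. Without hAFE replicate 1 it was 47.8% and 30.3% of 508, and without hAFE replicate 2, 51.8% and 26.9% of 587. With the rule and the comparison both changed, these shifts cannot show the part of a single library. Between hPFE and hDE, hPFE was ahead of both hDE libraries at 355 members (52.4%, against 38.3%) and behind both at 197 (29.1%, against 35%) by rank, and by summit over background at 82 (12.1%, against 8.73%) and 284 (41.9%, against 66.5%). A rank that improved at each step without overlap was found at 55 members (8.12%, against 5.98%), and a rank that worsened at each step at 22 (3.25%, against 5.36%). By summit over background these numbers were 5 (0.739%, against 0.345%) and 21 (3.1%, against 1.41%). The libraries differ in depth and the strength limit corresponds to a −log10 p of 11.55 and 69.15 at hDE, 18.52 and 15.27 at hAFE, and 11.47 at hPFE. The part of depth in these orders was not tested.

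Single members show how far the stages could part; these were chosen after their values were seen. Inside SMAD3, the gene of a mediator of Nodal and TGF-beta signals, the ranks were 78135 and 120564 at hDE, 48073 and 282402 at hAFE, and 3985 at hPFE. The summit was 7.64 and 10.3 times the background in hDE, 22.1 and 3.38 times in hAFE, and 32.2 times in hPFE, so hPFE was first on both scales. The region 5939 bp from MSMB was its counterpart for hAFE, with ranks of 11714 and 16703 at hDE, 414 and 2797 at hAFE, and 72956 at hPFE. Its summit was 28.2 and 52.0 times the background at hDE, 152 and 75.8 times at hAFE, and 5.83 times at hPFE, highest in both hAFE libraries. MIPOL1 held a region with ranks of 56001 and 68689 at hDE, 5682 and 6748 at hAFE, and 79104 at hPFE, just inside the limit.

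SHH, the gene of the Sonic hedgehog ligand, which is expressed in pharyngeal endoderm, had a member 214696 bp away at chr7:156027159-156027688. It ranked 269344 and 55733 at hDE, 10141 and 34019 at hAFE, and 78555 at hPFE, best in both hAFE libraries. The region 79048 bp from METRNL ranked 73391 and 282552 at hDE, 7305 and 8862 at hAFE, and 14024 at hPFE. The opposite order was seen inside MACF1, the gene of a cytoskeletal linker, where the ranks were 15062 and 30072 at hDE, 64754 and 265743 at hAFE, and 66658 at hPFE. AOPEP gave 9526 and 22919 at hDE, 74494 and 299265 at hAFE, and 72577 at hPFE, so that hAFE replicate 2 held a peak near the very end of its list.

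Members lay farther from gene ends than distal regions in general, though about as many were inside genes. The median distance to the nearest end of a coding gene was 74260 bp, against 26278 bp for the 14197 regions with hESC peaks allowed and 53588 bp for all distal regions. It was 49467 bp for the regions with weak hESC peaks only and 22978 bp for those strong at every stage. The other regions with no hESC peak were nearer to the members, with 68563 bp where strong peaks lay in hDE and hAFE but not hPFE and 58347 bp where they lay in hAFE and hPFE but not hDE. More than 100 kb from every coding gene end lay 271 members (40%, against 35.3% of all distal regions and 20.8% of the 14197), and more than 500 kb lay 47 (6.94%, against 6.71% and 2.92%). Beyond 1000 kb lay 10 (1.48%, against 1.45% and 0.535%). The midpoint was inside a coding gene at 303 members (44.8%, against 46% and 48.6%). Regions are not replicates, so these shares carry no test.

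**Figure D4:**
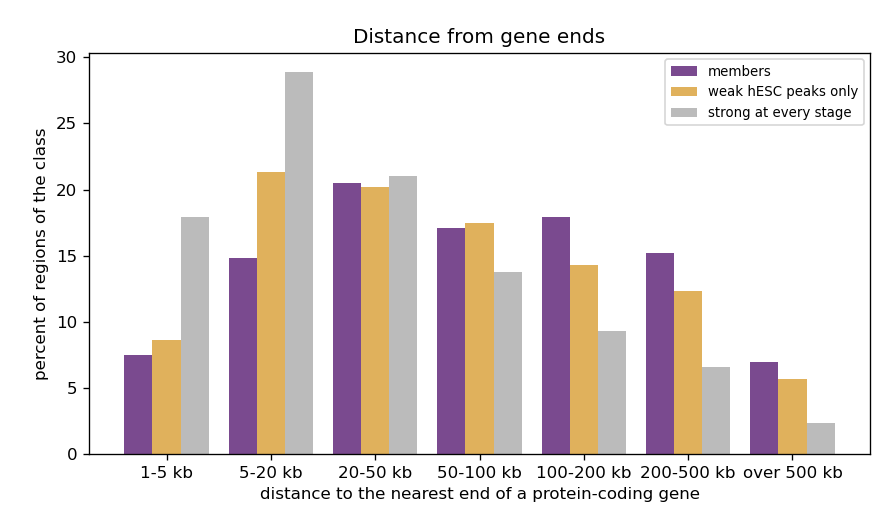
Share of regions (percent of each class, linear axis from 0) by distance to the nearest end of a protein-coding gene, for the 677 members, the 1409 regions with weak hESC peaks only and the 12111 strong at every stage. From 100 kb on, the bar of the members is the highest in every bin (17.9%, 15.2% and 6.94%), and within 20 kb the regions strong at every stage are the most frequent.

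Long noncoding RNA genes held the midpoint of 136 members (20.1%, against 17.5% of all distal regions). Outside both coding and long noncoding genes lay 273 members (40.3%), and no member covered a microRNA hairpin. Neither of these was counted over all distal regions, so no comparison is drawn. Chromosome 2 had the most members, with 63 (9.31%), and also held 8.82% of all distal regions; chromosome 22 had the fewest, with 2 (0.295%, against 1.23%). As a share of the regions strong at all 3 later stages, members made up 8.71% on chromosome 18 (27 members), 0.883% on chromosome 19 (5) and 0.69% on chromosome 22, beside 4.77% in all. The median gap between neighbouring members on a chromosome was 2678560 bp. Within 25 kb of another lay 10 members, as pairs at KCNQ5, HIVEP2, KCNU1, BMP2 and between THOC2 and XIAP. Other distal regions were not joined in this way. At HIVEP2, a zinc finger factor gene, the pair spanned 7641 bp, and one region ranked 62660 and 59105 at hDE, 26365 and 29468 at hAFE, and 40197 at hPFE. The other ranked 21501 and 18502 at hDE, 38208 and 80481 at hAFE, and 66896 at hPFE, so that only the first ranked best in hAFE.

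By medians, given as a description, the members were longer than distal regions in general. Their outermost summits also lay farther apart in the median than those of the other classes compared. The upper quartile of that distance was mixed: 152.5 bp for members, against 77 bp with hESC peaks allowed and 69 bp at every stage. It was higher, at 174 bp, with weak hESC peaks only, and at 189 bp over all distal regions. The median length was 731 bp, against 804 bp for the 14197 regions with hESC peaks allowed and 545 bp for all distal regions. At the 620 members with a peak in all 5 libraries, the outermost summits lay a median of 60 bp apart, against 38 bp for the regions with hESC peaks allowed, 52 bp for those with weak hESC peaks only, 36 bp for those strong at every stage and 52 bp for all distal regions with a peak in the 5. Among the named members the distance was 14 bp at CHD1, 18 bp at CDH2 and 20 bp at TNFSF8, but 741 bp at CBLB, 618 bp at STAT4 and 561 bp at SAMD5, where the libraries placed their summit at different points of the region.

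The limits of the rule cut through regions of nearly equal values. The weakest needed rank was 79801 at CA10, 79882 at TMTC2 and 79957 at PRKX just inside the strength limit, and 80003 at CHCHD6, 80125 at MR1 and 80152 at SERBP1 just outside. The nearest members to a gene end lay 1046 bp from INTS14, 1141 bp from PET117 and 1427 bp from IDS, and the first left out lay 996 bp from CEMIP2, 920 bp from SARS1 and 893 bp from ORAI3. In all, 19 regions met the rule but for the distance.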

How the data were processed

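Deposited ATAC-seq peak lists of 7 libraries were used, 1 list per library. The submitters' processing notes name the build hg38 and, with no version, the tool DiffBind. Per the deposited file names, duplicates and reads of the mitochondrion were removed, Tn5 cut sites were used, and peaks passed a p limit of 0.01 and a further filter. No aligner or peak caller is named in the labels or files used here. The authors' fold enrichment (a ratio over the local background) and −log10 p were deposited for each peak, and depth is not given in these lists as a number of reads; the deposited −log10 q and the display score were not used. The number in a peak's name as deposited followed −log10 p in every library and served as the rank.

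The fold and −log10 p were solved for a whole summit height in cut sites and a local background, within 0.001 of −log10 p, and the most frequent background among peaks ranked beyond 150000 was taken as genome-wide. This step and the member rule were tested on simulated data. Python 3.11.15, numpy 2.4.6, pandas 2.3.3 and scipy 1.17.1 were used. Groups were taken from the labels. Genes were the 19974 protein-coding genes of RefSeq GRCh38.p14, assigned by the nearest end within 100 kb; the table gives gene spans, so exons and untranslated regions were not told apart. An absent peak ranked behind any peak. With 2, 2, 2 and 1 libraries per stage no test was run. Named were the 10 members best by mean rank, the strongest member of the 12 genes with the most members, and members at genes of 4 lists; others are said to be chosen after seeing values. The members, lists and alternatives were chosen with earlier results of these data known. A planned motif search around summits needed a genome and was replaced by RefSeq start windows.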

Additional observations from a re-analysis of the deposited data

How the results depend on the processing

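The number of members depends on the definitions. It was 127 with a strength limit of 40000, 1703 with 120000, 2086 when only strong hESC peaks counted as presence and 278 when both replicates had to be strong. It was 626 at a distance of more than 5 kb and 696 with no distance limit, and all 677 members remained among the 2086. A limit of 2 kb on region length could change nothing, because the longest member was 1843 bp. A stricter overlap was not run. Leaving out 1 library gave 508 to 1332 members; the highest came without hESC replicate 2. The share inside coding genes was 38.6% at the limit of 40000, 47.3% when only strong hESC peaks counted as presence, 42.1% with both replicates required, 43.5% beyond 5 kb and 43.7% to 45.8% without single libraries.

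By rank, the share of members with hPFE ahead of both hAFE libraries was 33.1% when both replicates had to be strong and 11.4% by summit over background, and the share behind was 46.8% and 53.5%. Leaving out 1 library gave 44.7% to 55.3% ahead and 26.1% to 52.5% behind; without hAFE replicate 2 the share behind was 52.5%, and with 1 hAFE library no rank can lie between. Both hAFE libraries were ahead of hDE at 31.7% with both replicates required, 18.8% by summit over background and 28.0% to 51.8% without single libraries. They were behind at 21.8% when weak hESC peaks were allowed, 9.16% by summit over background and 22.2% to 47.0% without single libraries, highest without hDE replicate 1. Without an hDE or hAFE library, only 1 of that stage was left to compare, and it had to be strong.

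Members within 25 kb of another numbered 0 at 40000 and with both replicates required, 104 at 120000, 157 with weak hESC peaks allowed and 2 to 48 without single libraries. Members at genes of the 4 lists numbered 3 at 40000, 22 at 120000, 33 with weak hESC peaks allowed, 2 with both replicates required, 3 with genes within 50 kb, 18 within 500 kb and 5 to 15 without single libraries. For these and the shares the cause was not tested. No paired analysis was possible because the results come from no test. The motif alternatives needed a genome and were not run. The background of the hESC libraries was 2.11 in replicate 1 and 4.62 in replicate 2, and the number of members was 941 without replicate 1 and 1332 without replicate 2; the part of depth was not tested.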

Other observations

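Whole gene families, taken by symbol after the members' genes had been seen, give further members by role and carry no test. Of 70 genes of the WNT pathway, 7 had a member within 100 kb, 7 of 76 regions strong at all 3 later stages (9.21%, beside 3.61% over all coding genes). The region inside LGR5, a receptor of R-spondins, ranked 13143 and 10568 at hDE, 46242 and 67394 at hAFE, and 23680 at hPFE, best in hDE. The region inside WLS, which carries WNT ligands to the cell surface, ranked 43811 and 20364 at hDE, 29132 and 26306 at hAFE, and 13270 at hPFE. The region inside RYK, a WNT coreceptor gene, ranked 74613 and 90547 at hDE, 23600 and 20353 at hAFE, and 68166 at hPFE, best in hAFE. TCF7L1, TCF7L2, DKK3 and RSPO2 had the others.

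Among 12 laminin genes, 3 had a member, LAMA1, LAMA3 and LAMA4, which encode alpha chains of the basement membrane (3 of 12 regions strong at all 3 later stages, 25%). The region 14657 bp from LAMA1 was the most even, with folds of 6.48 and 7.91 at hDE, 10.8 and 6.83 at hAFE, and 7.66 at hPFE. Integrin genes had 2 members, at ITGA9 and ITGB1, of 17 such regions (11.8%), cadherin genes 5 of 31 (16.1%), and collagen genes 2 of 40 (5%). A second member inside CDH2 lay beyond 100 kb of its ends, at 108518 bp, and ranked 54943 and 155259 at hDE, 5857 and 7653 at hAFE, and 32533 at hPFE. Among genes of retinoid handling and retinoid receptors, DHRS3 and RXRA had 1 each (2 of 25 regions strong at all 3 later stages, 8%). Another 2 lay inside RARB, a retinoic acid receptor gene, more than 100 kb from every gene end. The first of these ranked 24393 and 39948 at hDE, 71912 and 12772 at hAFE, and 10194 at hPFE.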
